A study of Homo sapiens with 24 samples.

Results

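The genes described here are the protein-coding genes of 2 chromosome segments whose RNA was lower in WNK2 null (WNK2-) T/C-28a2 chondrocytes than in wild-type (WT) cells. A gene was a member when GENCODE places its first base in GRCh38 at up to 36.13 Mb on chromosome 9, which is most of its short arm, or at 38.73 to 44.32 Mb of chromosome 17. It also had at least 10 reads in 4 or more of the 24 libraries. NR1D1, WNK4, IGFBP4 and genes whose symbol begins with NDUF, RPL, RPS or KCN were left out. This gave 226 members, 114 on chromosome 9 and 112 on chromosome 17, of 13185 protein-coding genes with the same minimum of reads. The segments were chosen by how far RNA levels in WNK2- cells differed from WT in each medium, so that difference is given as a description. Its counts past a threshold are printed beside those of all genes and support nothing, and tests are kept for comparisons that did not choose the members.

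T/C-28a2 is a line of human chondrocytes, the cells of cartilage, immortalised with the SV40 large T antigen. Poly(A) RNA had been sequenced in 24 libraries that form 6 groups with 4 apiece. The groups WT Ctr and WT Sor hold unmodified cells in isotonic medium and after 7 days in medium with 100 mM sorbitol, which raises its osmolarity. WNK2 trans Ctr and WNK2 trans Sor are labelled as WT cells transfected with a WNK2 plasmid for 48 hours before the same media, and their controls are untransfected cells. WNK2- Ctr and WNK2- Sor are cells in which exon 2 of WNK2, with the start codon, was deleted by CRISPR/Cas9. WNK2 encodes a kinase of the WNK family, which adjusts ion transport to osmotic change, and the gene lies on chromosome 9 outside the segment. The null cells were isolated as single clones by flow cytometry, so a difference shared by their 8 libraries cannot be told apart from a difference of the clone. The p-values below measure the spread between libraries of the same group, pooled for each gene over all 6 groups of 4.

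Neighbouring genes on a chromosome rarely share a function, and these segments hold genes of many kinds. The short arm of chromosome 9 carries the type I interferon cluster, as well as the cell cycle inhibitors CDKN2A and CDKN2B and the kinase JAK2. The chromosome 17 segment carries the receptor ERBB2, the transcription factors STAT3, STAT5A and STAT5B, the DNA repair gene BRCA1 and the type I keratins. In cartilage, STAT3 acts downstream of interleukin-6 family cytokines, and FKBP10 and P3H4 belong to the machinery that modifies newly made collagen. No measurement of DNA copy number was analysed here.

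The libraries held 14153002 to 25664619 counted reads. Those of the null cells were deeper than those of WT cells (18578564 to 25664619 reads against 14153002 to 17588934). The WNK2 gene itself had 1217 to 2568 reads in WT Ctr, 266 to 314 in WT Sor, and in null cells 440 to 501 (isotonic) and 322 to 503 (sorbitol). It had 163 to 290 reads in the libraries labelled WNK2 trans Ctr and 2237 to 3739 in those labelled WNK2 trans Sor, so WNK2 in the former goes against the label. WT Sor also held far fewer WNK2 reads than WT Ctr, whereas the authors reported no significant change of WNK2 after sorbitol. The ranges of WT Ctr and WNK2 trans Sor overlapped, as did those of WT Sor and WNK2 trans Ctr. Directions below that rest on any of these groups rest on the labels. That includes WT Ctr, the control of the isotonic comparison. The counts cover all exons of WNK2 together, and the loss of exon 2 cannot be checked from them. The chondrocyte markers COL2A1, ACAN, SOX9, COMP, MATN3, PRG4, COL9A1 and COL11A1 summed to 8.02 to 17.7 CPM, a library's reads scaled to a common total, in WT libraries and 2.80 to 5.63 CPM in null libraries, SOX9 was at 0 reads in every library, and 5 of the 8 could be tested. Fibroblast markers, led by COL1A1, summed to 2580 to 3850 CPM in WT and 947 to 2780 CPM in null libraries, epithelial markers to 608 to 938 and 848 to 1180 CPM, endothelial markers to 34.0 to 69.5 and 21.7 to 44.5 CPM, and leukocyte markers to at most 0.545 CPM. The epithelial sums came mostly from KRT8 and KRT18 (medians of 10178.5 and 5535.5 reads), while EPCAM, CDH1 and ESRP1 had medians of 14, 6 and 49.5. In the fibroblast list COL1A1 and COL3A1 had medians of 48766.5 and 5144 reads, and COL1A2 and PDGFRA 5.5 and 11.5. THY1 of the fibroblast list and CD68 of the leukocyte list were at 0 reads in every library. The part of these shifts in the results below was not tested.

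RefSeq promoters (GRCh38.p14) matched 180 of the 226 members, 101 on chromosome 9 and 79 on chromosome 17. The 150 bases before the start of 4 members and of 2 genes outside the edges are shown, because these 6 genes cover strong, moderate and no reduction within the segments and reduction beyond them. The first is JAK2, chr9:4984240-4984389, plus strand. The next are STAT5A, chr17:42287397-42287546, plus strand, and CDK12, chr17:39461336-39461485, plus strand. The last member is ACLY, chr17:41919023-41919172, minus strand, whose RefSeq start lies 11520 bases from the GENCODE start. The genes outside are GLIPR2, chr9:36136386-36136535, plus strand, and MLLT6, chr17:38705123-38705272, plus strand, with a RefSeq start 269 bases from that of GENCODE. Each is written 5′ to 3′ on the strand of its gene, with GC boxes (GGGCGG or CCGCCC) and CCAAT boxes (CCAAT or ATTGG) in capitals.
JAK2: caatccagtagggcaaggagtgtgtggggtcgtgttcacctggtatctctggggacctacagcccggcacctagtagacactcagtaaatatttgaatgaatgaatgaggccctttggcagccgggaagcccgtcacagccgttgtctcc
STAT5A: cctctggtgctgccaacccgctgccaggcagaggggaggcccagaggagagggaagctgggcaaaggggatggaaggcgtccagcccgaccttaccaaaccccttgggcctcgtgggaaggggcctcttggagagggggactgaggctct
CDK12: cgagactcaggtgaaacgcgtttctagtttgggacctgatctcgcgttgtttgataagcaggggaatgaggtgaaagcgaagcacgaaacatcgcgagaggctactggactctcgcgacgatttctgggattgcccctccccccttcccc
ACLY: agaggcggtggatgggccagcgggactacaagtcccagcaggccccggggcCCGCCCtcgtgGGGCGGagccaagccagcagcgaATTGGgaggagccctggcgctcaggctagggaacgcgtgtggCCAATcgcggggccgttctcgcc
GLIPR2: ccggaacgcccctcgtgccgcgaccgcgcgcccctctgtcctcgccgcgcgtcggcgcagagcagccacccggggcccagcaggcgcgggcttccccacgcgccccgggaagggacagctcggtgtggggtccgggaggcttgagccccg
MLLT6: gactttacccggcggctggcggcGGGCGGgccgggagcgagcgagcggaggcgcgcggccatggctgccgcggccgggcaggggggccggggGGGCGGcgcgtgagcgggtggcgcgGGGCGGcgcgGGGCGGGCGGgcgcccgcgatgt
These windows differed in both motifs. The ACLY window held 2 GC boxes and 2 CCAAT boxes, the MLLT6 window held 5 GC boxes, of which the last pair overlap, and the other 4 windows held neither. In the same window of 150 bases before each RefSeq start, a GC box was found in 102 of the 180 members (56.7%). It was found in 59.6% of 10493 protein-coding genes with the same minimum of reads and in 36.8% of all 35116 promoters. The shares were 61.4% on chromosome 9 and 50.6% on chromosome 17. A CCAAT box was found in 25.6% of members, 26.8% of the protein-coding genes and 23.5% of all promoters. Both shares were slightly under those of the protein-coding genes.

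The share of each library's reads that fell on the members gives the shift without any model. Members took 1.543% ± 0.029 of reads in WT Ctr, 1.507% ± 0.017 in WT Sor, 1.504% ± 0.017 in WNK2 trans Ctr and 1.439% ± 0.040 in WNK2 trans Sor (mean ± SD, n = 4 libraries each). In the null cells they took 1.13% ± 0.015 in WNK2- Ctr and 1.12% ± 0.017 in WNK2- Sor. The highest of the 8 null libraries stood at 1.15% and the lowest of the 16 others at 1.39%, so the groups did not overlap. RNA came from whole cultures, in which fewer cells with the usual level and less RNA in every cell cannot be told apart. On chromosome 9 the highest null library had 0.411% and the lowest other library 0.512%. On chromosome 17 these values were 0.757% and 0.840%, the lowest other library being of the WNK2 trans Sor group, which ran from 0.840% to 0.964%. A second measure was each library's median deviation of the segment's genes from their mean log2 level. By it chromosome 17 did overlap, with the highest null library at −0.125 and WNK2 trans Sor replicate 2 at −0.166. For chromosome 9 the highest null library stood at −0.224 and the lowest other at 0.028, without overlap. Elsewhere on chromosome 9, null libraries held 3.485% to 3.660% of reads and WT libraries 3.345% to 3.556%, and these ranges overlapped. The rest of chromosome 17 held 4.643% to 4.96% of reads in null libraries and 5.037% to 5.429% in WT libraries, without overlap. There the WNK2 trans Sor group ran from 4.804% to 5.219%. On chromosome 17 the lower share was thus not confined to the segment.

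**Figure D1:**
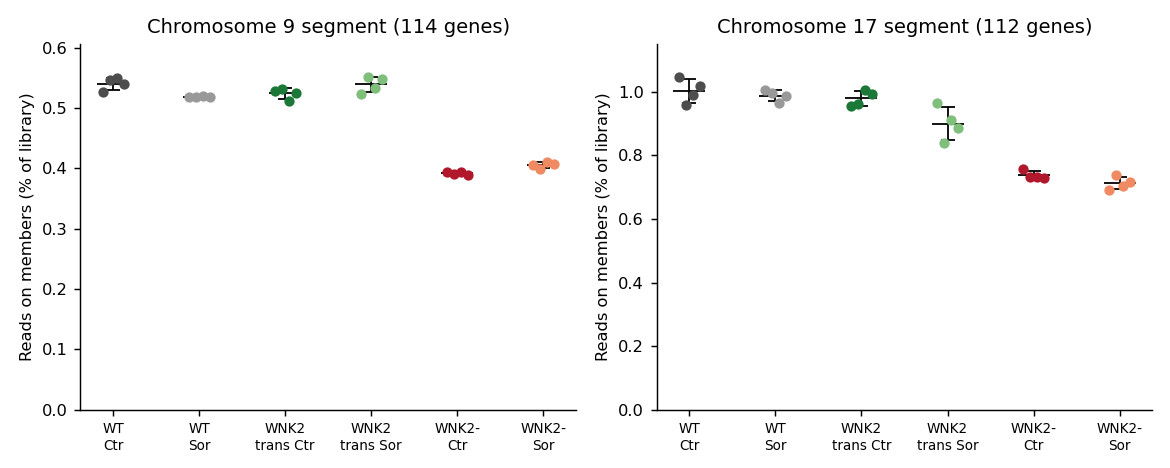
Percent of each library's reads on the 114 members of chromosome 9 (left) and the 112 members of chromosome 17 (right), by group; points are libraries, and lines give the mean and SD of 4. The 8 null libraries lie at or below 0.411% and 0.757%, under the 16 others, while WNK2 trans Sor spreads down to 0.840% on chromosome 17.

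Of the 226 members, 223 passed the filter on low counts, and SLC1A1, PTPRD and LINGO2 on chromosome 9 did not. In isotonic medium the median log2 fold change of the 223 in WNK2- Ctr against WT Ctr was −0.53, with quartiles of −0.83 and −0.17, while the median over all 16600 genes tested was 0.00. In edgeR's quasi-likelihood fit at a Benjamini-Hochberg adjusted p of 0.05, 131 members were lower and 15 higher, beside 21.5% lower and 20.7% higher of all genes. Under sorbitol the median was −0.49 with quartiles of −0.91 and −0.13, against 0.02 over all genes. Here 118 members were lower and 14 higher, beside 22.7% lower and 23.7% higher of all genes. These comparisons chose the members, and nothing is read from their counts.

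The 2 segments had medians of like size, −0.52 on chromosome 9 and −0.53 on chromosome 17 in isotonic medium, and −0.46 and −0.54 under sorbitol. Seen across media, 166 of 223 members had a log2 fold change below 0 in both, beside 37.4% of all genes, and 26 had one above 0 in both. Past the threshold in both media were 105 lower members (50 on chromosome 9 and 55 on chromosome 17), beside 14.8% of all genes, and 10 higher members, beside 14% of all genes. In 95 members the 4 null libraries lay below the 4 WT libraries in each medium, beside 13.3% of all genes. In 52 members the 8 null libraries lay below all 16 others, beside 4.77% of all genes. For 61 members neither medium passed the threshold. The share of all genes was not computed for this count or for that of members above 0 in both media, and nothing is read from either.

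**Figure D2:**
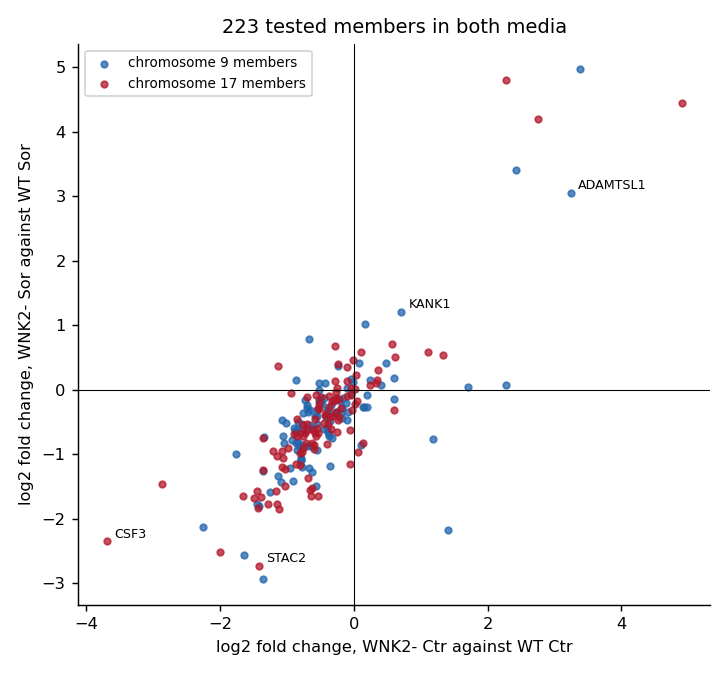
Log2 fold change of each of the 223 tested members in WNK2- Ctr against WT Ctr (x axis) and WNK2- Sor against WT Sor (y axis), 1 point a gene, coloured by chromosome. Most points lie below 0 on both axes around −0.53 and −0.49, with CSF3 and STAC2 far below and a small group with KANK1 and ADAMTSL1 above.

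The members were split by level, strand, base composition and promoter motif. Split by mean log2 CPM into 3 parts of like size, the medians in isotonic medium and under sorbitol were −0.40 and −0.41 for 75 low members, −0.63 and −0.63 for 74 middle ones and −0.50 and −0.38 for 74 high ones. The 101 members on the plus strand had medians of −0.50 and −0.45, and the 122 on the minus strand −0.57 and −0.53. By 3 parts of exonic GC content the medians were −0.52, −0.53 and −0.53 from low to high in isotonic medium. Under sorbitol they ran −0.39, −0.53 and −0.68, a gradient that isotonic medium did not have. Chromosome 17 members had a median GC content of 55% and chromosome 9 members 47.2%, against 48.5% over all tested genes with a position. Members with a GC box had medians of −0.52 and −0.52 (101 genes) and those without −0.43 and −0.38 (76 genes).

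Other genes of the segments also had negative medians. The 24 tested genes of other types on chromosome 9 had medians of −0.37 in isotonic medium and −0.33 under sorbitol, and the 11 on chromosome 17 had −0.35 and −0.71. The 9 genes left out by symbol had medians of −0.62 and −0.55. Below the minimum of reads were 148 protein-coding genes of the segments, among them 17 interferon genes, 32 keratin-associated genes and 23 keratins. Of the 148, 66 were listed at 0 in each of the 24 libraries, with CDKN2A, CDKN2B and MTAP, which lie side by side on chromosome 9, among them. Since 21 of the 66 share exon bases with another gene, a 0 can come from the counting. ENSG00000258728, ENSG00000264545 and PTGES3L-AARSD1 are readthrough models whose reads overlap those of other genes, and their values are uncertain.

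The edges of the segments were not edges of the shift. The 17 tested protein-coding genes between 36.13 Mb and 60 Mb of chromosome 9, towards and around the centromere, had medians of −0.48 in isotonic medium and −0.78 under sorbitol. The 413 genes beyond 60 Mb had medians of 0.06 and 0.04. On chromosome 17 the 320 genes before the segment had medians of −0.37 and −0.41, the 66 genes after it up to 50 Mb had −0.20 and −0.22, and the 273 genes beyond 50 Mb had 0.02 and −0.03. On chromosome 17 the lower values thus began well before the segment, and in steps of 2 Mb some earlier stretches were as low (−0.59 at 18 to 20 Mb, 22 genes) as those within it (−0.46 to −0.54 from 38 to 44 Mb).

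Single genes at the edges varied on both sides of each. Inside the chromosome 9 edge, RECK, an inhibitor of matrix metalloproteinases, had log2 fold changes of −0.71 in isotonic medium and −0.87 under sorbitol, and HRCT1 1.40 and −2.17, the latter from few reads. Outside it, GLIPR2 had −0.73 and −1.13 and the clathrin light chain CLTA −0.35 and −0.13. At the first edge on chromosome 17, EPOP (0.23 and −0.65) and MLLT6 (−0.84 and −1.74) lie outside, and CISD3 (−0.37 and −0.26) and PCGF2 (−0.06 and −0.62) inside. At the second, RUNDC3A (0.04 and 0.23) and SLC25A39 (−0.04 and 0.04) lie inside, and GRN (−0.91 and −0.74) and FAM171A2 (−0.80 and −2.28) outside. MLLT6, GRN and FAM171A2 outside were lower than any of the 4 chromosome 17 members nearest to the edges.

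**Figure D3:**
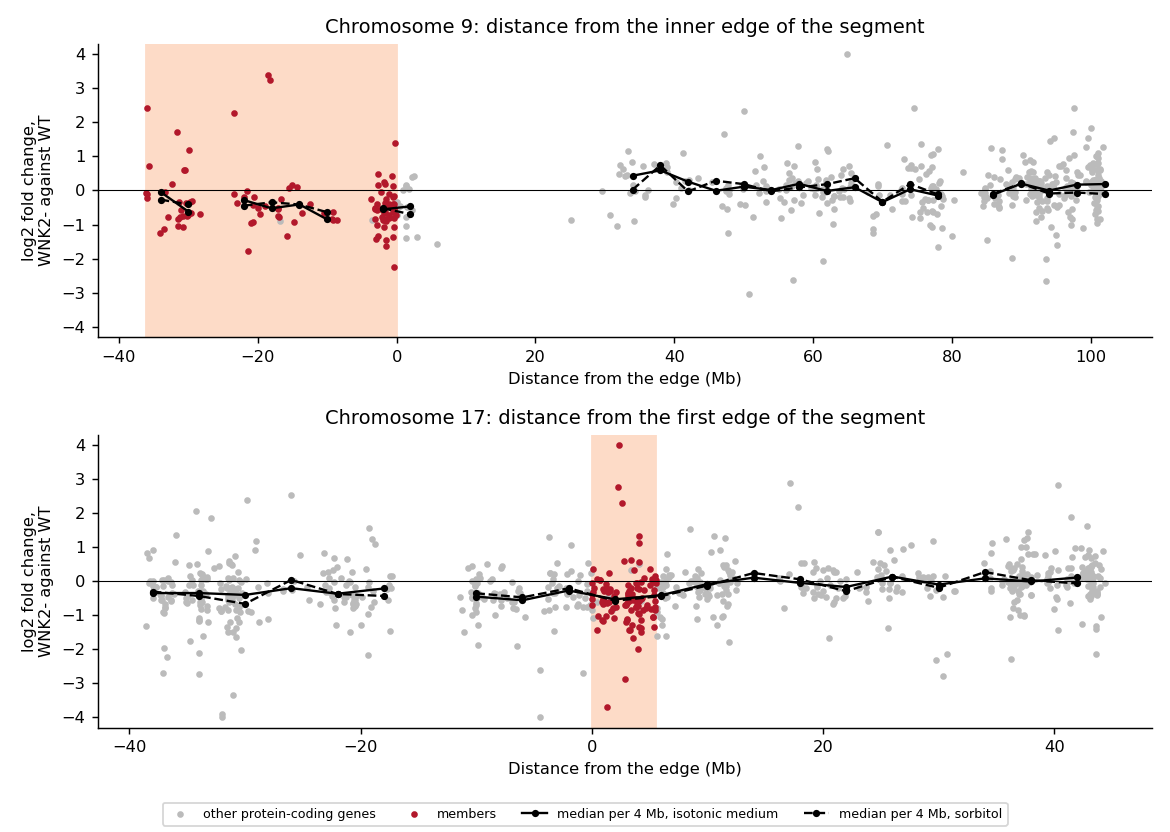
Log2 fold change of protein-coding genes by distance in Mb from an edge of the segment, for chromosome 9 (top) and chromosome 17 (bottom). Points are genes in WNK2- Ctr against WT Ctr, with members red, other genes grey, and values past ±4 drawn at ±4. Lines join medians of 4 Mb stretches with 5 or more genes. The solid line is for isotonic medium and the dashed line for WNK2- Sor against WT Sor. The medians lie below 0 in the shaded segments and also before the chromosome 17 segment, where 320 genes had a median of −0.37 in isotonic medium.

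The members are next described by role, in lists chosen with earlier results known. The counts of each list come from the comparison that chose the members and support nothing, and over all genes 21.5% were lower and 20.7% higher in isotonic medium, 22.7% and 23.7% under sorbitol. Normalised read counts are given by library, in the order of the replicate numbers. The list of cell cycle and methionine salvage genes had 5 tested members, TOP2A, CDC6, HAUS6, TUBG1 and CDC37L1, the last of which encodes an HSP90 co-chaperone, and 4 were lower and none higher in isotonic medium, 3 and none under sorbitol. TOP2A (ENSG00000131747, chr17:40388516-40417950), the topoisomerase that untangles chromosomes before division, had 21190, 28280, 33710 and 26600 in WT Ctr and 13670, 14360, 15930 and 15160 in WNK2- Ctr. It had 17490, 16800, 16270 and 15830 in WT Sor and 10690, 8444, 12480 and 9649 in WNK2- Sor. The null libraries lay below the WT libraries in both media, with log2 fold changes of −0.89 (SE 0.14) and −0.69 (SE 0.14). HAUS6 (ENSG00000147874, chr9:19053143-19103119), a subunit of the augmin complex of the mitotic spindle, had 1768, 2333, 2618 and 2196 in WT Ctr and 1220, 1376, 1393 and 1353 in WNK2- Ctr, and 1960, 1976, 2154 and 2062 in WT Sor and 1478, 1091, 1532 and 1269 in WNK2- Sor. Its groups did not overlap in either medium, with −0.74 (SE 0.14) and −0.60 (SE 0.14). CDC6, which licenses replication origins, differed less, with −0.30 (SE 0.09) and −0.17 (SE 0.09).

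The DNA repair list had 3 tested members. APTX (ENSG00000137074, chr9:32972606-33025168), which removes AMP from broken DNA ends, had 950.2, 968.7, 807 and 813.7 in WT Ctr and 630.1, 604.7, 568.9 and 602.3 in WNK2- Ctr, and 738.2, 751.5, 822.8 and 854.5 in WT Sor and 592.7, 586.1, 513.9 and 503.9 in WNK2- Sor. All its null libraries were lower, with −0.56 (SE 0.10) and −0.53 (SE 0.10). FANCG of the Fanconi anaemia core complex showed −0.40 (SE 0.13) and −0.34 (SE 0.13). BRCA1 (ENSG00000012048, chr17:43044295-43170245), which acts in homologous recombination, had 2453, 3067, 3179 and 2862 in WT Ctr and 1946, 2048, 2224 and 2025 in WNK2- Ctr, without overlap. Under sorbitol the groups overlapped, at 2091, 2029, 2105 and 1941 in WT Sor and 2010, 1732, 2069 and 1776 in WNK2- Sor, so that the fold change was −0.49 (SE 0.09) in isotonic medium and −0.11 (SE 0.09) under sorbitol. The genotype by medium term, tested below, called none of the 3 genes of this list. Of all genes it called 3.99% more positive and 4.66% more negative, so a difference between the media is not claimed for BRCA1.

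Among 8 tested genes of JAK-STAT signalling and innate sensing, 6 were lower and none higher in each medium, with medians of −0.67 and −0.92. This count, from the comparison that chose the members, stands beside 21.5% lower and 20.7% higher of all genes in isotonic medium. Under sorbitol these shares were 22.7% and 23.7%. The kinase JAK2 (ENSG00000096968, chr9:4984390-5128183), which carries signals from cytokine receptors, had 340, 361.2, 616.6 and 476.6 in WT Ctr and 209.4, 282.7, 257.7 and 289.1 in WNK2- Ctr. Under sorbitol it had 603.2, 620.1, 604.7 and 577.9 in WT Sor and 305.9, 245.9, 291.7 and 283.2 in WNK2- Sor. The null libraries were lower without overlap, with −0.79 (SE 0.19) and −1.09 (SE 0.18). STAT3 (ENSG00000168610, chr17:42313324-42388568), its target, had 3080, 2866, 3144 and 3149 in WT Ctr and 2063, 2060, 2167 and 2079 in WNK2- Ctr, and 3481, 3314, 3334 and 3439 in WT Sor and 2174, 2215, 2297 and 2328 in WNK2- Sor. The replicates of STAT3 were close together and the groups far apart, with −0.55 (SE 0.06) and −0.59 (SE 0.06).

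STAT5A (ENSG00000126561, chr17:42287547-42311943) and STAT5B (ENSG00000173757, chr17:42199168-42276707), paralogs that lie head to head, differed in size. STAT5A had 542.6, 382.5, 447.8 and 488.5 in WT Ctr and 135.5, 159.6, 156.9 and 137.4 in WNK2- Ctr, and 461.7, 519.7, 414 and 527.8 in WT Sor and 129.7, 159.2, 180.6 and 149.6 in WNK2- Sor. It was about as low in both media, at −1.66 (SE 0.13) and −1.64 (SE 0.13). STAT5B showed −0.38 (SE 0.06) and −0.53 (SE 0.06). CD274, the immune checkpoint ligand PD-L1, had few reads and overlapping groups, with 0.60 (SE 0.50) and 0.19 (SE 0.48). CNTFR, a receptor subunit for ciliary neurotrophic factor, had −1.45 (SE 0.18) and −1.77 (SE 0.18), and the RNA sensor DHX58 −0.86 (SE 0.19) and −1.15 (SE 0.19).

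The chromatin and transcription list had 18 tested members, of which 11 were lower and none higher in each medium. Of all genes, 21.5% were lower and 20.7% higher in isotonic medium, 22.7% and 23.7% under sorbitol. SMARCA2 (ENSG00000080503, chr9:1980290-2193624), an ATPase of the SWI/SNF remodelling complexes, had 451, 383.7, 440.3 and 488.5 in WT Ctr and 178.1, 171.5, 193.1 and 193.3 in WNK2- Ctr, and 735, 810, 806.6 and 810.6 in WT Sor and 273.8, 286.8, 253.1 and 237.4 in WNK2- Sor. It was far below WT in both media, at −1.26 (SE 0.11) and −1.59 (SE 0.11). PSIP1, a chromatin reader that binds methylated histone H3, had −0.91 (SE 0.10) and −1.41 (SE 0.10), and the Mediator subunit MED24 −0.27 (SE 0.10) and −0.35 (SE 0.10). CDK12 (ENSG00000167258, chr17:39461511-39564907), the kinase of elongating RNA polymerase II and a neighbour of ERBB2, had 3069, 2847, 3837 and 3815 in WT Ctr and 3223, 3483, 3459 and 3573 in WNK2- Ctr, and 3516, 3548, 3384 and 3165 in WT Sor and 3402, 3218, 3572 and 3591 in WNK2- Sor. Its groups overlapped, with 0.02 (SE 0.12) and 0.02 (SE 0.12). HDAC5, a histone deacetylase, and EZH1, a histone methyltransferase, stood at −1.35 (SE 0.10) and −0.73 (SE 0.08) in isotonic medium and at −1.24 (SE 0.10) and −0.67 (SE 0.08) under sorbitol.

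The cytoskeleton, adhesion and keratin list was the 1 list with a positive median in isotonic medium, 0.13, with 3 of 9 tested members lower and 2 higher. Under sorbitol its median was −0.27, with 2 lower and 1 higher. All genes had 21.5% lower and 20.7% higher in isotonic medium, 22.7% and 23.7% under sorbitol. JUP (ENSG00000173801, chr17:41754604-41786931), plakoglobin of cell junctions, had 6059, 3999, 4091 and 5441 in WT Ctr and 2440, 2297, 2078 and 1980 in WNK2- Ctr, and 7187, 7214, 7224 and 7615 in WT Sor and 2035, 2456, 1946 and 2142 in WNK2- Sor. All null libraries were below all WT libraries, at −1.16 (SE 0.13) and −1.77 (SE 0.14). CAVIN1, a coat protein of caveolae, TLN1, the integrin adaptor talin, and the actin-binding LASP1 did not share the shift, with 0.34 (SE 0.17), −0.15 (SE 0.07) and 0.35 (SE 0.11) in isotonic medium and 0.11 (SE 0.17), −0.12 (SE 0.07) and 0.16 (SE 0.11) under sorbitol. KANK1 (ENSG00000107104, chr9:470291-746106), which links talin to microtubules, went the other way, with 117, 100.7, 136.3 and 159.3 in WT Ctr and 175.3, 198.8, 213.8 and 249.9 in WNK2- Ctr, and 152.4, 161.3, 121.8 and 131.7 in WT Sor and 333.2, 351, 285.9 and 342.1 in WNK2- Sor. Every null library was above every WT library, at 0.71 (SE 0.15) and 1.21 (SE 0.14).

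Of 8 tested genes of the matrix and its receptors, 7 were lower and 1 higher in isotonic medium, beside 21.5% and 20.7% of all genes. Under sorbitol 6 were lower and 1 higher, beside 22.7% and 23.7% of all genes. The medians of the list were −0.70 and −1.17. FKBP10 (ENSG00000141756, chr17:41812680-41823217), a collagen chaperone, had 6532, 3600, 4073 and 5500 in WT Ctr and 3434, 3188, 2849 and 3233 in WNK2- Ctr, and 6678, 6759, 6373 and 6887 in WT Sor and 1882, 2670, 1805 and 2157 in WNK2- Sor. The spread within WT Ctr was wide but no null library reached it, with −0.63 (SE 0.19) and −1.65 (SE 0.19). P3H4 (ENSG00000141696, chr17:41801947-41812604), a partner of the lysyl hydroxylase of collagen, starts beside FKBP10 and had 2734, 2297, 2056 and 2413 in WT Ctr and 1171, 1097, 1009 and 1080 in WNK2- Ctr, and 3522, 3252, 3035 and 3311 in WT Sor and 850.2, 1050, 850.1 and 883.4 in WNK2- Sor. It was lower without overlap, at −1.12 (SE 0.12) and −1.85 (SE 0.13). ERBB2, a receptor tyrosine kinase, had −0.69 (SE 0.15) and −1.37 (SE 0.15). ADAMTSL1, a secreted matrix protein, was higher from a low level, with 1.206, 0, 1.082 and 6.637 in WT Ctr and 20.84, 19.15, 18.96 and 24.99 in WNK2- Ctr.

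In protein quality control, 8 of 11 tested members were lower in isotonic medium and 3 under sorbitol, beside 21.5% and 22.7% of all genes. None were higher in either medium, beside 20.7% and 23.7% of all genes, and the medians of the list were −0.52 and −0.11. The genotype by medium term, tested below, called 1 of the 11. DNAJA1 (ENSG00000086061, chr9:33025211-33039907), a co-chaperone of HSP70, had 8458, 10410, 8691 and 8018 in WT Ctr and 6652, 6052, 6052 and 5998 in WNK2- Ctr, without overlap. Under sorbitol it had 5809, 5821, 5600 and 5877 in WT Sor and 6228, 5784, 6822 and 6120 in WNK2- Sor, with the groups overlapping. The fold changes were −0.52 (SE 0.08) and 0.11 (SE 0.08). The segregase VCP showed −0.45 (SE 0.08) and −0.13 (SE 0.08), and the proteasome subunit PSMD3 −0.10 (SE 0.15) and −0.09 (SE 0.15).

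In metabolism, 8 of 11 tested members were lower and none higher in isotonic medium, beside 21.5% and 20.7% of all genes. Under sorbitol 6 were lower and 1 higher, beside 22.7% and 23.7% of all genes. B4GALT1 (ENSG00000086062, chr9:33104082-33167356), which adds galactose to glycoproteins, had 4323, 5360, 5071 and 4505 in WT Ctr and 1786, 1725, 1821 and 1862 in WNK2- Ctr, and 4349, 4253, 4292 and 4157 in WT Sor and 1151, 1113, 1275 and 1340 in WNK2- Sor. It was low in every null library, at −1.42 (SE 0.08) and −1.80 (SE 0.08). ACLY (ENSG00000131473, chr17:41866908-41930542), which makes cytosolic acetyl-CoA from citrate, had 10110, 9365, 9492 and 10820 in WT Ctr and 7834, 7584, 7715 and 7827 in WNK2- Ctr, and 10240, 10360, 9959 and 9657 in WT Sor and 7264, 7880, 7255 and 7621 in WNK2- Sor. Its smaller shift had no overlap either, at −0.36 (SE 0.07) and −0.42 (SE 0.07). ACO1 (ENSG00000122729, chr9:32384603-32454769), the cytosolic aconitase that also binds iron-responsive RNA elements, had 2804, 2914, 3034 and 2788 in WT Ctr and 2489, 2323, 2547 and 2407 in WNK2- Ctr. Under sorbitol it had 1924, 1992, 1961 and 1991 in WT Sor and 2505, 2386, 2714 and 2556 in WNK2- Sor. It was below WT in isotonic medium, at −0.24 (SE 0.07), and above it under sorbitol, at 0.37 (SE 0.07).

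**Figure D4:**
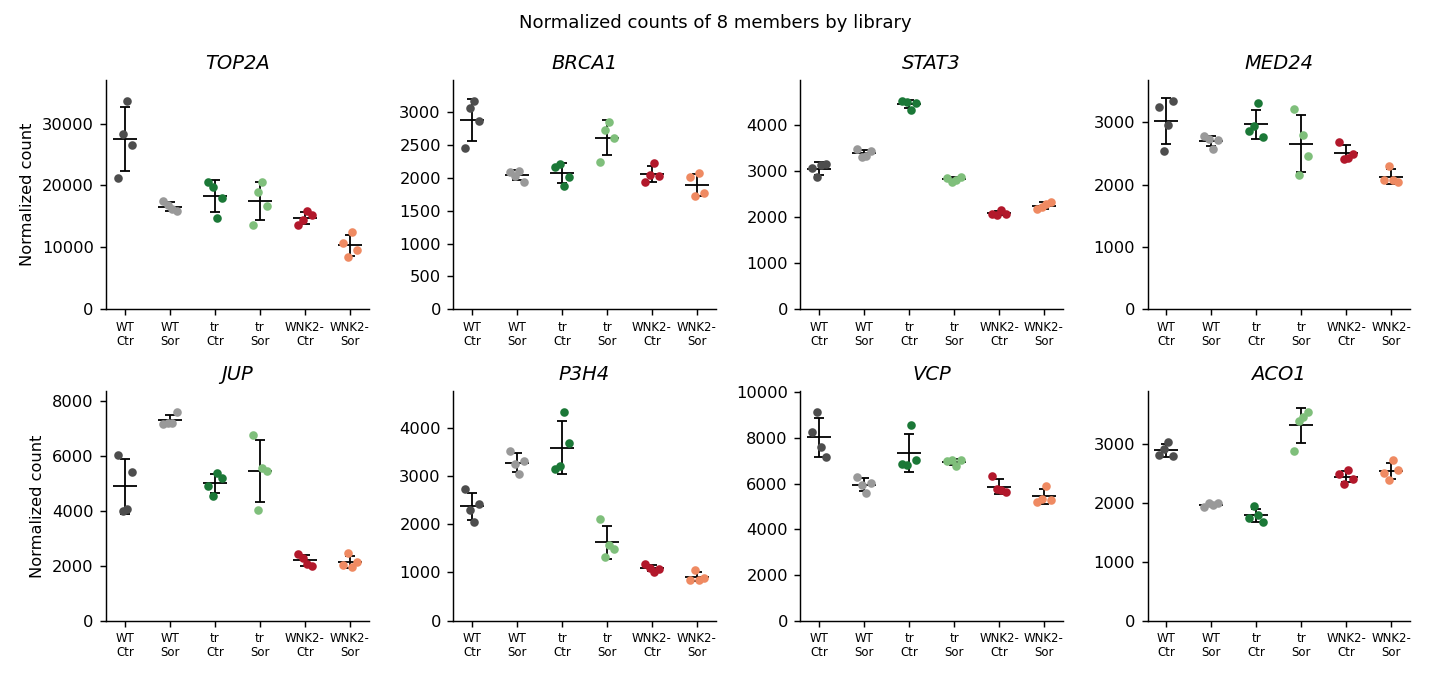
Normalised read counts of 8 members, 1 from each role list, by group (tr, WNK2 trans); points are libraries, and lines give the mean and SD of 4. JUP and P3H4 lie lowest in all null libraries, BRCA1 and VCP overlap with WT Sor, and ACO1 changes its order between the media.

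Some members stood far from the segments' medians. The lowest by the mean of both media, among members with enough reads, was CSF3 (ENSG00000108342, chr17:40015361-40017813), the cytokine G-CSF, with 360.5, 227.4, 176.3 and 257.5 in WT Ctr and 19.9, 17.33, 16.38 and 24.99 in WNK2- Ctr, and 296.2, 313, 350 and 324.7 in WT Sor and 63.51, 77.54, 38.64 and 71.04 in WNK2- Sor. STAC2 (ENSG00000141750, chr17:39210536-39225872), an adaptor of calcium channels, had 279.7, 214.3, 177.4 and 204.4 in WT Ctr and 83.38, 79.35, 83.62 and 79.97 in WNK2- Ctr, and 233, 260.4, 188.7 and 246 in WT Sor and 29.36, 41.69, 26.08 and 43 in WNK2- Sor. Both were low in every null library, CSF3 at −3.69 (SE 0.27) and −2.35 (SE 0.23) and STAC2 at −1.42 (SE 0.20) and −2.73 (SE 0.21). Among the higher members, chosen after their values were seen, SH3GL2 (endophilin A1) had 8.441, 26.05, 6.491 and 9.292 in WT Ctr and 130.8, 127.7, 137.9 and 132.4 in WNK2- Ctr, and 4.355, 7.168, 6.088 and 11.23 in WT Sor and 245.2, 203.4, 246.3 and 228.1 in WNK2- Sor. DOCK8, KRTAP2-3, KRTAP1-5 and KRT34 were also higher, and their WT libraries held few reads or none. NOL6, a factor of ribosome assembly, was higher at 0.48 (SE 0.15) and 0.41 (SE 0.15). ANKRD18B was higher under sorbitol, at 1.02 (SE 0.16), and differed little from WT in isotonic medium, at 0.17 (SE 0.15).

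In WT cells the segments' medians stayed near 0 with sorbitol. This comparison and those that follow did not choose the members and were tested in the edgeR quasi-likelihood model, with p-values adjusted by Benjamini-Hochberg over all genes. The median of the members was 0.02 (0.03 on chromosome 9 and 0.00 on chromosome 17) against 0.04 over all genes. After 7 days, 15 of 223 members rose and 24 fell, that is 6.73% and 10.8%, beside 11.4% and 12.7% of all genes.
LURAP1L (ENSG00000153714, chr9:12775021-12822131) rose from 155.5, 253.4, 168.8 and 168.6 in WT Ctr to 362.6, 364.4, 510.3 and 505.4 in WT Sor (log2 fold change 1.22, SE 0.17, adjusted p = 1.1e-05). ERMP1, a metallopeptidase of the endoplasmic reticulum, rose from 330.4, 351.7, 468.4 and 426.1 in WT Ctr to 731.7, 719.2, 722.4 and 677.9 in WT Sor (log2 fold change 0.85, SE 0.14, adjusted p = 8.8e-05). SMARCA2 rose too (log2 fold change 0.84, SE 0.10, adjusted p = 2.5e-06), and these 3 genes had no overlap between media. The falls were led by ANKRD18B, from 148.3, 216.7, 181.7 and 212.4 in WT Ctr to 106.7, 119.5, 124.8 and 101.1 in WT Sor (log2 fold change −0.75, SE 0.16, adjusted p = 0.00135). TOP2A fell by the counts given above (log2 fold change −0.73, SE 0.14, adjusted p = 0.000397). COA3, an assembly factor of cytochrome c oxidase, fell as well, from 1279, 1631, 1053 and 937.2 in WT Ctr to 765.5, 769.4, 692 and 810.6 in WT Sor (log2 fold change −0.69, SE 0.15, adjusted p = 0.00185). None of the 3 overlapped. After correction of each library for GC content and gene length, 62 members were called in place of 39. The share of all genes called was not computed for this or the other alternative settings below. A changed count of calls is therefore not read as a result about the members.

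In null cells sorbitol left the members at a median of −0.05 (0.01 on chromosome 9 and −0.07 on chromosome 17) against 0.005 over all genes. Here 20 of 223 rose and 15 fell, that is 8.97% and 6.73%, beside 8.25% and 6.64% of all genes. The already low CSF3 rose from 19.9, 17.33, 16.38 and 24.99 in WNK2- Ctr to 63.51, 77.54, 38.64 and 71.04 in WNK2- Sor (log2 fold change 1.67, SE 0.28, adjusted p = 0.000148). ATOSB rose without overlap from 301.3, 291.9, 234.5 and 243.2 in WNK2- Ctr to 447.3, 598.6, 429.9 and 480.5 in WNK2- Sor (log2 fold change 0.87, SE 0.20, adjusted p = 0.00263), and LURAP1L rose here too (log2 fold change 0.87, SE 0.17, adjusted p = 0.000584). STAC2 fell from 83.38, 79.35, 83.62 and 79.97 in WNK2- Ctr to 29.36, 41.69, 26.08 and 43 in WNK2- Sor (log2 fold change −1.22, SE 0.22, adjusted p = 0.000301). The thyroid hormone receptor THRA fell from 660.4, 585.5, 581 and 511.5 in WNK2- Ctr to 361.9, 356, 336.2 and 362.7 in WNK2- Sor (log2 fold change −0.72, SE 0.16, adjusted p = 0.00302), and PGAP3, which remodels GPI anchors, fell likewise (log2 fold change −0.67, SE 0.15, adjusted p = 0.00281), all 3 without overlap. The count of 35 calls depended on single libraries, since it was 19 without WNK2- Sor replicate 1 and 23 without WNK2- Ctr replicate 2. It was 60 with the correction for GC content and length and 67 when the model held WNK2- libraries alone.

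In the libraries labelled WNK2 trans Ctr the medians were near 0 as well. Against WT Ctr the members had a median of 0.03 (0.00 on chromosome 9 and 0.05 on chromosome 17), with 10 higher and 12 lower, that is 4.48% and 5.38%, beside 5.57% and 6.98% of all genes. STAT3 was higher, at 4538, 4501, 4331 and 4493 in WNK2 trans Ctr (log2 fold change 0.55, SE 0.06, adjusted p = 5.52e-07), and P3H4 at 3139, 3201, 4331 and 3684 in WNK2 trans Ctr (log2 fold change 0.60, SE 0.12, adjusted p = 0.00151). Neither overlapped with WT Ctr. CSF3 was lower at 33.58, 46.7, 49.48 and 41.37 in WNK2 trans Ctr (log2 fold change −2.56, SE 0.25, adjusted p = 6.72e-08), ACO1 at 1744, 1940, 1785 and 1666 in WNK2 trans Ctr (log2 fold change −0.69, SE 0.07, adjusted p = 3.58e-07) and ERMP1 at 283.5, 186, 173.2 and 224.1 in WNK2 trans Ctr (log2 fold change −0.87, SE 0.14, adjusted p = 0.00013), again without overlap. FAM219A was called higher (log2 fold change 0.32, SE 0.10, adjusted p = 0.0434), and this call was lost in 23 of the other settings tried, with adjusted p from 0.0215 to 0.24 over them. The 22 calls became 34 without WT Ctr replicate 1, 35 with the correction for GC content and length and 10 when the model held these groups alone.

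Under sorbitol the libraries labelled WNK2 trans Sor had a lower median on chromosome 17 than WT. Against WT Sor the median was −0.18 on chromosome 17 and 0.06 on chromosome 9, beside 0.01 over all genes. On chromosome 17, 36 of 112 members were lower and 7 higher, 32.1% and 6.25%, and on chromosome 9, 14 of 111 were lower and 20 higher, 12.6% and 18%, beside 15.5% lower and 16.1% higher of all genes. The other stretches of chromosome 17 also had negative medians here (−0.09 before the segment, −0.10 after it to 50 Mb and −0.13 beyond), as had chromosome 9 beyond 60 Mb (−0.08). The chromosome 17 value rested on few libraries, since it was −0.29 without WNK2 trans Sor replicate 1 and −0.08 without replicate 2, and −0.08 with the correction for GC content and length.
STAC2 had 105.9, 53.2, 44.39 and 67.94 in WNK2 trans Sor (log2 fold change −1.78, SE 0.20, adjusted p = 2.83e-07), THRA had 537.9, 259, 349.8 and 417.8 in WNK2 trans Sor (log2 fold change −1.39, SE 0.17, adjusted p = 5.3e-07) and PLEKHH3 had 833.9, 274, 378.3 and 411.3 in WNK2 trans Sor (log2 fold change −1.26, SE 0.25, adjusted p = 0.000438). All 3 were below every WT Sor library. CSF3 was higher at 1369, 602.3, 851.8 and 965.9 in WNK2 trans Sor (log2 fold change 1.56, SE 0.21, adjusted p = 3.1e-06), as was the zinc finger factor BNC2 at 1058, 2299, 1582 and 1926 in WNK2 trans Sor (log2 fold change 0.97, SE 0.19, adjusted p = 0.000367), and ACO1 at 2876, 3390, 3445 and 3537 in WNK2 trans Sor (log2 fold change 0.75, SE 0.07, adjusted p = 3.08e-08). These too were clear of WT Sor.

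WNK2 trans Sor was also compared with WNK2 trans Ctr, whose WNK2 counts go against their label. Among members 44 rose and 66 fell, 19.7% and 29.6%, beside 24.3% and 23.7% of all genes. The median was −0.31 on chromosome 17 (15 rose and 44 fell of 112) and −0.03 on chromosome 9 (29 rose and 22 fell of 111). Without WNK2 trans Ctr replicate 3 the chromosome 17 median was −0.20, and protein-coding genes outside the segments had a median of −0.05. CSF3 rose from 33.58, 46.7, 49.48 and 41.37 in WNK2 trans Ctr to 1369, 602.3, 851.8 and 965.9 in WNK2 trans Sor (log2 fold change 4.46, SE 0.25, adjusted p = 2.73e-13). ERMP1 (log2 fold change 1.97, SE 0.14, adjusted p = 3.96e-11) and LURAP1L (log2 fold change 1.35, SE 0.17, adjusted p = 3.87e-07) rose as well, and STAC2 (log2 fold change −2.08, SE 0.20, adjusted p = 7.51e-09) and THRA (log2 fold change −1.69, SE 0.17, adjusted p = 7.58e-09) fell. In each of these 5 genes the 4 libraries with sorbitol were clear of the 4 without.

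**Figure D5:**
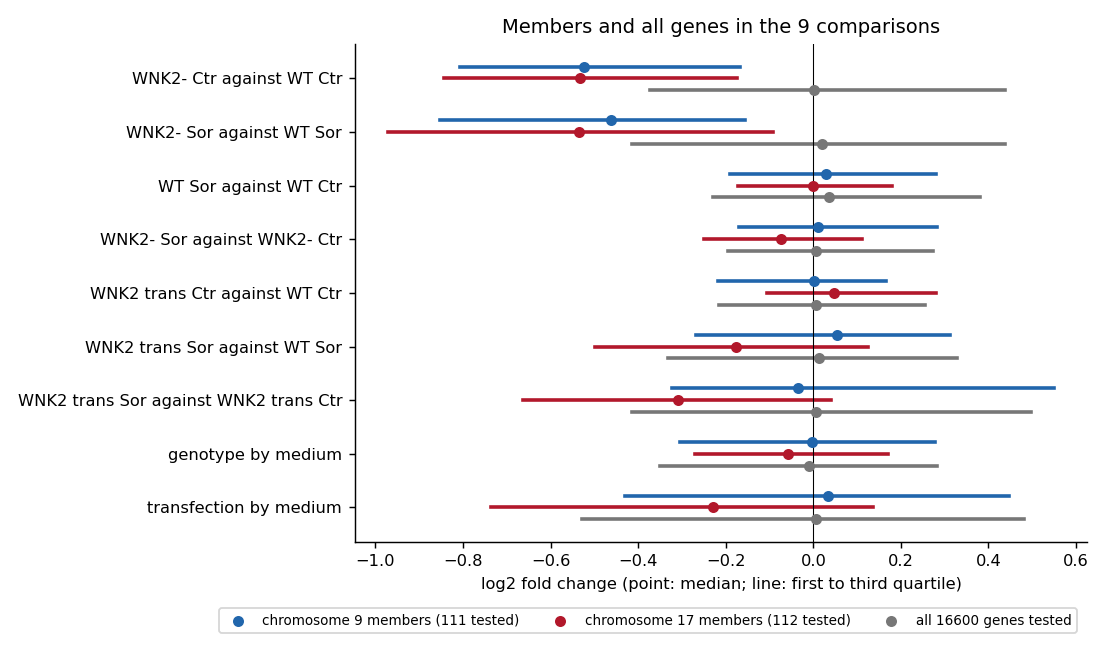
Median (point) and first to last quartile (line) of log2 fold changes in 9 comparisons for the 111 tested members of chromosome 9, the 112 of chromosome 17 and all 16600 genes tested. The 2 comparisons of WNK2- with WT cells place both segments' medians between −0.46 and −0.54, and chromosome 17 has medians of −0.18 and −0.31 in those with WNK2 trans Sor.

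By role, members of several lists changed in these tested comparisons. In WT cells sorbitol lowered 3 of 5 genes of the cell cycle and methionine salvage list and 4 of 11 of protein quality control and raised none of either, beside 12.7% lowered and 11.4% raised of all genes. The genotype by medium term called none of these 5 in edgeR's quasi-likelihood test (lowest adjusted p = 0.499, for CDC37L1) and 1 of these 11, beside 3.99% and 4.66% of all genes in either direction. In WNK2 trans Sor against WT Sor, 4 of 8 matrix genes were lower and 1 higher, 4 of 11 of protein quality control were higher and none lower, and chromatin genes went both ways (4 higher and 5 lower of 18), beside 15.5% lower and 16.1% higher of all genes. In WNK2 trans Sor against WNK2 trans Ctr, 5 of 8 matrix genes fell and 1 rose, and 4 of 8 JAK-STAT genes fell and 3 rose, beside 23.7% and 24.3% of all genes.

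The change with sorbitol was then set against genotype. In the genotype by medium term, 8 of 223 members had a more positive change in null cells and 10 a more negative one, 3.59% and 4.48%, beside 3.99% and 4.66% of all genes. The median was −0.04. DNAJA1 fell with sorbitol in WT cells and had 6652, 6052, 6052 and 5998 in WNK2- Ctr and 6228, 5784, 6822 and 6120 in WNK2- Sor in null cells (difference of log2 fold changes 0.63, SE 0.114, adjusted p = 0.000746). ACO1 differed in the same sense (difference of log2 fold changes 0.61, SE 0.105, adjusted p = 0.000468), and STAC2 in the opposite one (difference of log2 fold changes −1.30, SE 0.29, adjusted p = 0.00553). The 18 calls became 28 without WT Ctr replicate 4, 11 without WNK2- Ctr replicate 3, 30 with DESeq2, 29 when the model held WNK2- and WT libraries alone and 42 with the correction for GC content and length.

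The transfection by medium term called 81 members, 33 more positive and 48 more negative in the libraries labelled WNK2 trans, 14.8% and 21.5%, beside 18.1% and 17.4% of all genes. By segment, 22 were positive and 13 negative on chromosome 9, and 11 and 35 on chromosome 17. CSF3 was lower with the transfection label in isotonic medium and higher with it under sorbitol (difference of log2 fold changes 4.12, SE 0.326, adjusted p = 4.63e-10). ACO1 showed the same pattern (difference of log2 fold changes 1.45, SE 0.105, adjusted p = 1.12e-10) and STAT3 its reverse (difference of log2 fold changes −0.81, SE 0.085, adjusted p = 5.93e-08). The chromosome 17 median of −0.23 was −0.36 without WNK2 trans Sor replicate 1 and −0.15 without WNK2 trans Ctr replicate 3. These comparisons and those above share control libraries, so their values stand side by side and are not independent.

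The null cells were also compared with the libraries labelled WNK2 trans as another control group, a comparison added after the data were seen. It shares the null libraries with the comparison that chose the members and is again a description. In isotonic medium the members had a median of −0.52 (−0.50 on chromosome 9 and −0.57 on chromosome 17), with 125 lower, beside 23.7% of all genes. Under sorbitol the median was −0.38 (−0.53 and −0.31), with 107 lower, beside 17% of all genes.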

How the data were processed

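Poly(A) RNA-seq of 24 T/C-28a2 libraries in 6 groups of 4 was used. Per the labels, the authors processed reads with FastQC 0.11.9, HISAT2 2.2.1, HTSeq 2.0.2 and DESeq2 1.38.3 on GRCh38, and deposited whole-number counts per gene, not normalised. The annotation release and the strand setting of the counting are not given in the sources used here. From these counts edgeR 4.0.16 (R 4.3.3) was run with filterByExpr (minimum count 10, minimum total 15), TMM factors, 6 group means, the quasi-likelihood test and Benjamini-Hochberg adjustment at 0.05 over 16600 genes. SE is the absolute log2 fold change divided by the square root of F. A normalised read count is the count scaled to the mean effective library size. The code was tested on simulated data. Positions came from GENCODE and symbols from a gene table. Replicates of a group differed by more than sampling noise (chi-square per degree of freedom 2.26 to 64.1 over 36 pairs). The members and lists were chosen with earlier results of these data known. Named genes were role examples, the 3 largest changes in each direction of a tested comparison among called members (no overlap between groups, mean log2 CPM not under 3), the 3 smallest p of an interaction, the 3 lowest and highest members, and the edge genes; 1 gene that the rule names is not reported here. The promoters of JAK2, STAT5A, CDK12 and ACLY, SH3GL2 and the higher low-level members were chosen after their values were seen. Alternatives were other normalisation, filters, DESeq2 1.42.0, a replicate block, thinning, GC and length correction, other sample or member sets, and leaving out each library.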

Additional observations from a re-analysis of the deposited data

Results flagged for a closer look

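In a group of 4, a library was singled out when its gap to the nearest other library took up most of the group's range. This held in 18 of 318 groups examined (5.66%), and chance gives about 1 in 20. WNK2- Ctr replicate 1 had 1.152% of reads on the members (others 1.12% to 1.124%) and 0.7574% on the chromosome 17 members (0.7302% to 0.7311%). The same library had normalised read counts of 2355 for CDC6 (2097 to 2129), 7811 for TLN1 (7426 to 7458), 6652 for DNAJA1 (5998 to 6052), 552.4 for COA3 (445.1 to 459.8) and 281.4 for RECK (352.1 to 359.5).

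Single libraries stood apart in other groups. WNK2- Sor replicate 2 had 2305 for MED24 (2046 to 2077) and 1050 for P3H4 (850.1 to 883.4), and replicate 4 had 32.72 for RUNDC3A (17.75 to 19.32). In WT Sor, JUP was 7615 in replicate 4 (7187 to 7224), PSMD3 was 3937 (4573 to 4648) and SLC25A39 was 2309 (2559 to 2589) in replicate 3, and SMARCA2 was 735 in replicate 1 (806.6 to 810.6). LURAP1L was 253.4 in WT Ctr replicate 2 (155.5 to 168.8). WNK2 trans Ctr replicate 3 had 2927 for ERBB2 (2590 to 2603) and 8582 for VCP (6811 to 7043), and CD274 was 48.18 in WNK2 trans Sor replicate 2 (33.69 to 35.93).

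The response to sorbitol differed between groups for some members by the interaction term of edgeR's quasi-likelihood fit. Between null and WT cells the difference of log2 fold changes was 0.61 for ACO1 (adjusted p = 0.000468), 0.634 for DNAJA1 (adjusted p = 0.000746) and −1.303 for STAC2 (adjusted p = 0.00553). Between libraries labelled WNK2 trans and WT libraries, where WNK2 in isotonic medium goes against the label, it was 1.445 for ACO1 (adjusted p = 1.12e-10), 4.123 for CSF3 (adjusted p = 4.63e-10) and −0.808 for STAT3 (adjusted p = 5.93e-08).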

How the results depend on the processing

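The lower RNA of the segments in null cells, by which the members were chosen, kept its sign in each alternative run of the same counts. That choice largely fixed the sign, so it supports nothing and the values are a description. The chromosome 9 median under sorbitol, −0.463, was −0.443 with RLE factors and with DESeq2, −0.486 with TMM without the segments, −0.427 for genes with 10 reads in 4 libraries, −0.425 with a replicate block, −0.422 for members over 1 Mb from an edge, −0.431 with the compared groups alone, −0.45 after thinning, −0.483 with GC and length correction and −0.533 against the libraries labelled WNK2 trans. In isotonic medium it was −0.553 for inner members, −0.55 with the compared groups alone and −0.498 against the libraries labelled WNK2 trans. On chromosome 17 the sorbitol median was −0.572 without the filter and −0.309 against the libraries labelled WNK2 trans.

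With GC and length correction, called members were 62 (WT Sor against WT Ctr), 60 (WNK2- Sor against WNK2- Ctr), 35 (WNK2 trans Ctr against WT Ctr) and 42 (genotype by medium). Medians then were −0.038 and −0.094 for WT Sor on chromosomes 9 and 17, −0.019 for WNK2- Sor on 9, 0.014 and −0.083 for WNK2 trans Sor against WT Sor, 0.04 and 0.029 for genotype by medium, and −0.108 for transfection by medium on 17. With the compared groups alone, calls were 67, 10 and 29 for WNK2- Sor, WNK2 trans Ctr and genotype by medium, and DESeq2 gave 30 for the last. Without the filter, chromosome 9 medians were 0.061 (WT Sor), −0.013 (WNK2- Sor), −0.066 (genotype by medium) and −0.011 (transfection by medium). After thinning the last pair were −0.032 and −0.019. For inner members they were −0.044 (WNK2 trans Ctr), 0.124 (WNK2 trans Sor against WT Sor), 0.057 (against WNK2 trans Ctr), 0.036 and 0.082 (the interactions). Of the reads on protein-coding genes, members took 1.576%, 1.545%, 1.539%, 1.166% and 1.154% (WT in both media, WNK2 trans Ctr, and WNK2- in both media). Of all reads, inner members took 1.22%, 1.172%, 1.171%, 1.14%, 0.8691% and 0.8588% over the 6 groups from WT Ctr to WNK2- Sor. These shares differ from the main ones by their denominator or their set of members. The cause of the moves in calls and medians was not tested. The share of all genes called was not computed for these settings or for those that follow.

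Leaving out 1 library at a time, calls ran 136 to 150 and 123 to 138 (WNK2- against WT, isotonic and sorbitol), 30 to 44 (WT Sor), 19 to 41 (WNK2- Sor), 19 to 34 (WNK2 trans Ctr), 57 to 88 (WNK2 trans Sor against WT Sor), 99 to 128 (against WNK2 trans Ctr), 11 to 28 and 68 to 96 (the interactions). In that order, chromosome 9 medians ran −0.577 to −0.509, −0.484 to −0.413, 0.001 to 0.055, −0.006 to 0.024, −0.029 to 0.023, 0.018 to 0.073, −0.071 to 0.016, −0.052 to 0.011 and −0.035 to 0.031. Those of chromosome 17 ran −0.552 to −0.459, −0.584 to −0.524, −0.054 to 0.055, −0.1 to −0.053, 0.013 to 0.109, −0.286 to −0.082, −0.425 to −0.196, −0.124 to −0.018 and −0.362 to −0.15.

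Samples were not treated as paired by replicate number, since in no comparison were the correlations of same-numbered libraries all over 0.1 (range −0.617 to 0.511). In WNK2- Ctr against WT Ctr 3 of them were over 0.1, and in each other comparison 1 was. Libraries of different numbers were not correlated, so pairing is not excluded. With the replicate block, calls were 143, 130, 38, 31, 24, 75, 117, 15 and 82 in place of 146, 132, 39, 35, 22, 77, 110, 18 and 81, and the chromosome 9 genotype by medium median was −0.024.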
